A study of Mus musculus with 7 samples.

Results

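miR-126a and miR-126b are made from the same stretch of mouse chromosome 2, read from opposite strands. Their 4 mature arms, mmu-miR-126a-3p, mmu-miR-126a-5p, mmu-miR-126b-3p and mmu-miR-126b-5p, were taken by name from the 1966 mature miRNAs counted in each of 7 small RNA libraries. The libraries came from mouse hepatocytes, the main cells of the liver, of 2 genotypes labelled WT (n = 3) and ALAS12-KO (n = 4). ALAS is aminolevulinate synthase, which carries out the first step of heme synthesis, and the design text asks what part it has in the regulation of small RNAs. That text calls the cells ALAS1/2 mutant, while the labels name no allele, promoter or Cre driver for the mutants. Both groups carry the treatment label TMX, which is not spelled out, and neither age nor sex of the mice is in the labels. Livers were digested with collagenase and hepatocytes were enriched by slow centrifugation, so cells of other types can remain. Nothing states that the replicates are separate mice, and the p-values below therefore measure the spread between these libraries, which may be in part technical.

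miR-126 is the best known miRNA of endothelial cells, the cells that line blood vessels and the sinusoids of the liver. It is processed from an intron of Egfl7, which encodes a protein secreted by endothelial cells. The 3p arm is known to strengthen signalling by VEGF, a growth factor for vessels, by repressing Spred1 and Pik3r2, inhibitors of that signalling, and it also represses the leukocyte adhesion molecule Vcam1. The 5p arm is known to sustain endothelial proliferation by repressing Dlk1. In hepatocyte preparations miR-126a is used as a marker of endothelial carry-over.

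Mir126a lies at chr2:26591357-26591429 on the plus strand (GRCm38, mm10). In GENCODE M21 it falls in an intron of 8 of the 19 transcripts of Egfl7 (chr2:26580014-26593120, plus strand), which is intron 7 in 4 of them, and in exon 4 of 1 transcript with a retained intron. Mir126b lies at chr2:26591363-26591420 on the minus strand, wholly inside Mir126a. The hairpin sequences from RefSeq (GRCm38.p6) are shown because they make plain how the strands relate. They run 5′ to 3′, and capitals mark the mature arms that the RefSeq table holds.
Mir126a: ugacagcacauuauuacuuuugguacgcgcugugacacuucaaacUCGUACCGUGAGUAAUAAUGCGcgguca
Mir126b: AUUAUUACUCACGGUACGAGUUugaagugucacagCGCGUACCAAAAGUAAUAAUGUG

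Mature sequences matched for 3 of the 4 members, all but miR-126a-5p, and are shown with the seed, bases 2 to 8, in capitals because the seed is the part that pairs with target mRNAs.
miR-126a-3p: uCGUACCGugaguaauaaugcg
miR-126b-3p: cGCGUACCaaaaguaauaaugug
miR-126b-5p: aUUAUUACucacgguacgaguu
The 3 seeds differ from each other, though those of miR-126a-3p and miR-126b-3p share the stretch CGUACC at shifted positions. No other mature miRNA in the table, which lacks miR-126a-5p, carried any of the 3 seeds. miR-126b-5p faces miR-126a-3p over 19 bases, all 19 of them complementary. miR-126b-3p faces bases 7 to 29 of the Mir126a hairpin, on its 5p side. Read along its own strand, each hairpin also resembles the other. At the best ungapped match to the Mir126a hairpin, miR-126b-3p had 5 mismatches over 23 bases and miR-126b-5p had 5 over 22 bases. miR-126a-3p likewise had 5 mismatches over 22 bases at its best match to the Mir126b hairpin.

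The libraries held 7719180 to 21962191 miRNA reads, so 1 CPM, or 1 read per 1000000 miRNA reads, stood for 7.72 to 22.0 reads. Hepatocyte markers took 60.7% to 69.3% of these reads, most of it miR-122-5p, the dominant miRNA of hepatocytes. ALAS12-KO replicate 1 had the lowest summed share of the 7 libraries for the endothelial, leukocyte, mesenchymal, cholangiocyte and red cell markers. It had the highest share for the hepatocyte markers. None of these shares was far from its ALAS12-KO group by the check given near the end. The miR-126a comparisons are given without it as well.

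miR-126a-3p was among the most abundant miRNAs of these hepatocyte preparations. It was counted at 26054, 24304 and 35796 CPM in WT replicates 1 to 3. In ALAS12-KO replicates 1 to 4 it was counted at 7496.5, 17429, 23896 and 19617 CPM. Every ALAS12-KO library lay below every WT library, but the highest ALAS12-KO value and the lowest WT value nearly met. Its rank among all miRNAs was 3 to 5 in WT and 6 to 19 in ALAS12-KO, with rank 19 in ALAS12-KO replicate 1. The WT mean was 28718 CPM with an SD of 6192 (n = 3), and the ALAS12-KO mean was 17110 CPM with an SD of 6949 (n = 4). The spread within ALAS12-KO, 40.6% of its mean, was wider than the 21.6% within WT.

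The other arm, miR-126a-5p, was less abundant in every library and kept the order of the libraries within each group. It was counted at 11869, 11258 and 16676 CPM in WT and at 3462.5, 8061, 12589 and 10019 CPM in ALAS12-KO. Here the groups overlapped, because ALAS12-KO replicate 3 was above WT replicates 1 and 2. The WT mean was 13268 CPM with an SD of 2968 (n = 3), and the ALAS12-KO mean was 8533 CPM with an SD of 3855 (n = 4).

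**Figure D1:**
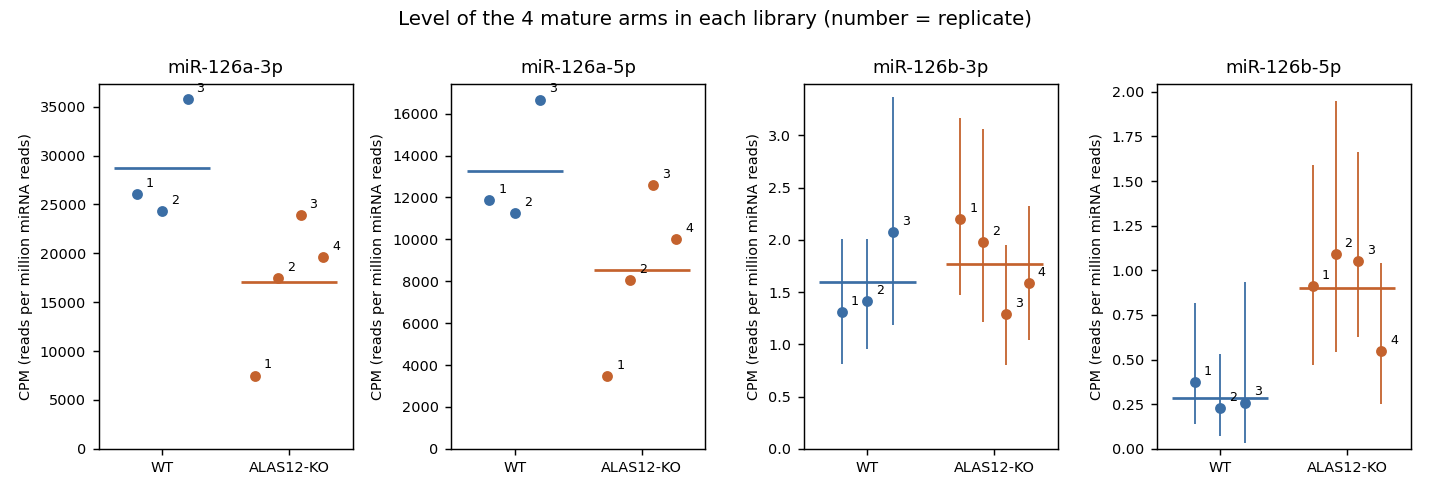
Reads per 1000000 miRNA reads (CPM, y axis from 0) of the 4 mature arms in the WT (n = 3) and ALAS12-KO (n = 4) libraries, with points for libraries and their replicate number, horizontal lines for group means and vertical bars for exact 95% Poisson intervals, which are smaller than the points for miR-126a. miR-126a-3p runs from 24304 to 35796 CPM in WT and from 7496.5 to 23896 CPM in ALAS12-KO, while miR-126b-5p runs from 0.228 to 0.374 CPM and from 0.549 to 1.09 CPM.

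The minus-strand arms were far rarer and did not follow the plus strand. miR-126b-3p had 21, 31 and 16 reads in WT, or 1.31, 1.41 and 2.07 CPM. In ALAS12-KO it had 29, 20, 22 and 26 reads, or 2.20, 1.98, 1.29 and 1.59 CPM. The groups overlapped, and ALAS12-KO replicate 1, the library with the fewest miR-126a reads, had the highest miR-126b-3p CPM of all 7. The WT mean was 1.60 CPM with an SD of 0.414 (n = 3), and the ALAS12-KO mean was 1.76 CPM with an SD of 0.407 (n = 4).

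miR-126b-5p was the rarest arm, and its CPM was higher in every ALAS12-KO library than in any WT library. It had 6, 5 and 2 reads in WT, or 0.374, 0.228 and 0.259 CPM. In ALAS12-KO it had 12, 11, 18 and 9 reads, or 0.911, 1.09, 1.05 and 0.549 CPM. Single values were loose at this depth. The exact 95% Poisson interval ran from 0.137 to 0.815 CPM for WT replicate 1 and from 0.251 to 1.04 CPM for ALAS12-KO replicate 4, so the nearest libraries of the groups could not be told apart by counting alone. Such intervals cover counting error only, since no molecular identifiers were counted. The WT libraries summed to 13 reads, with a mean of 0.287 CPM and an SD of 0.0773 (n = 3). The ALAS12-KO libraries summed to 50 reads, with a mean of 0.901 CPM and an SD of 0.247 (n = 4).

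Abundance was compared with edgeR's quasi-likelihood test over the 450 miRNAs kept by its filter, on counts scaled with TMM factors, which correct library totals for makeup. No member passed the adjusted threshold of 0.05. edgeR called 0 of the 450 miRNAs (0%), with 84 at an unadjusted p under 0.05, of which 46 were higher and 38 lower in ALAS12-KO (21 higher and 56 lower with library totals alone). DESeq2 called 21 of the 450, 14 of them higher (3.11%), and limma-voom called 0, with no member among those called.

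miR-126a-3p had a log2 fold change of −0.61 ± 0.27 (SE, edgeR adjusted p = 0.264), and its groups did not overlap. It was 1 of the 38 miRNAs (8.44%) that were lower at an unadjusted p under 0.05, at an edgeR p of 0.0494. Its unadjusted p was over 0.05 with DESeq2 (0.0660) and with library totals alone in edgeR (0.0711). In edgeR it was also over 0.05 with DESeq2 size factors (0.0589), a filter on CPM (0.0595) and almost no filter (0.122). It stayed under 0.05 with limma-voom (0.0421) and, in edgeR, with upper-quartile factors (0.0196) and a replicate block (0.0194). With each library left out in turn, the edgeR p was under 0.05 only without ALAS12-KO replicate 1 (0.0157) or replicate 3 (0.0300). Of all miRNAs, 15.3% had all ALAS12-KO libraries below WT on CPM (9.33% with TMM), so such a separation was not rare. miR-126a-5p had −0.51 ± 0.29 (SE, edgeR adjusted p = 0.344), with overlap on CPM and TMM, though not with upper-quartile factors. miR-126b-3p had 0.37 ± 0.36 (SE, edgeR adjusted p = 0.568). For the last arm, miR-126b-5p, the value was 1.77 ± 0.43 (SE, edgeR adjusted p = 0.147, DESeq2 adjusted p = 0.0552). It was 1 of the 46 (10.2%) that were higher at an unadjusted p under 0.05, and 5.33% of all had all ALAS12-KO libraries above WT on CPM (10.9% with TMM). miR-126b-5p reached 10 reads in 0 WT libraries and 3 ALAS12-KO libraries, so it passed the filter through the group where it was high, and its separation is not read as support for a difference. Without ALAS12-KO replicate 1 the log2 fold changes were −0.42 ± 0.14 for miR-126a-3p (SE, edgeR adjusted p = 0.134) and −0.31 ± 0.16 for miR-126a-5p (SE, edgeR adjusted p = 0.294). For miR-126b-3p the value was then 0.13 ± 0.34 (SE, edgeR adjusted p = 0.897), and miR-126b-5p was not kept by the filter. Fewer endothelial cells and less miR-126a per cell cannot be told apart in such libraries.

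The balance of the 2 arms of miR-126a varied little while the level of miR-126a-3p varied by 3.19 times within ALAS12-KO. The 5p arm made up 31.3%, 31.7% and 31.8% of miR-126a reads in WT. In ALAS12-KO it made up 31.6%, 31.6%, 34.5% and 33.8%. ALAS12-KO replicate 1, with the lowest level, lay within the WT range, and only replicates 3 and 4 lay above it. The log2 ratio of miR-126a-5p to miR-126a-3p averaged −1.12 (SD 0.02, n = 3) for WT and −1.03 (SD 0.10, n = 4) for ALAS12-KO, and the difference of 0.09 (0.11 without ALAS12-KO replicate 1) had a two-sided exact permutation p of 0.314, or 0.343 adjusted over the 8 single values tested in this way (Benjamini-Hochberg). The smallest p that 3 against 4 libraries can give is 0.0286. In limma over the 130 hairpins with both arms kept, miR-126a had 0.09 ± 0.12 (SE, adjusted p = 0.818).

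The balance of miR-126b was looser. The 5p arm made up 22.2%, 13.9% and 11.1% of 27, 36 and 18 miR-126b reads in WT. In ALAS12-KO it made up 29.3%, 35.5%, 45.0% and 25.7% of 41, 31, 40 and 35 reads. All ALAS12-KO shares were above all WT shares, yet the exact 95% binomial intervals of the nearest libraries overlapped, from 8.62% to 42.3% in WT replicate 1 and from 12.5% to 43.3% in ALAS12-KO replicate 4. The log2 ratio of miR-126b-3p to miR-126b-5p averaged 2.32 (SD 0.53, n = 3) for WT and 0.96 (SD 0.52, n = 4) for ALAS12-KO, a difference of −1.36 with a two-sided exact permutation p of 0.0286 (0.114 adjusted). With 5 instead of 0.5 added to each count the difference was −0.80 and the exact permutation p was 0.0571. limma called 0 of the 130 hairpins (0%), with 7 at an unadjusted p under 0.05 (5.38%), miR-126b among them at 1.36 ± 0.36 for the 5p over the 3p arm (SE, adjusted p = 0.345). As in the abundance test, miR-126b was among the hairpins tested only through the group where its 5p arm is high, and it dropped out without ALAS12-KO replicate 1, 2 or 3, so its value is not read as support for a difference. Of the 130 hairpins, 10.0% had no overlap between the groups.

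**Figure D2:**
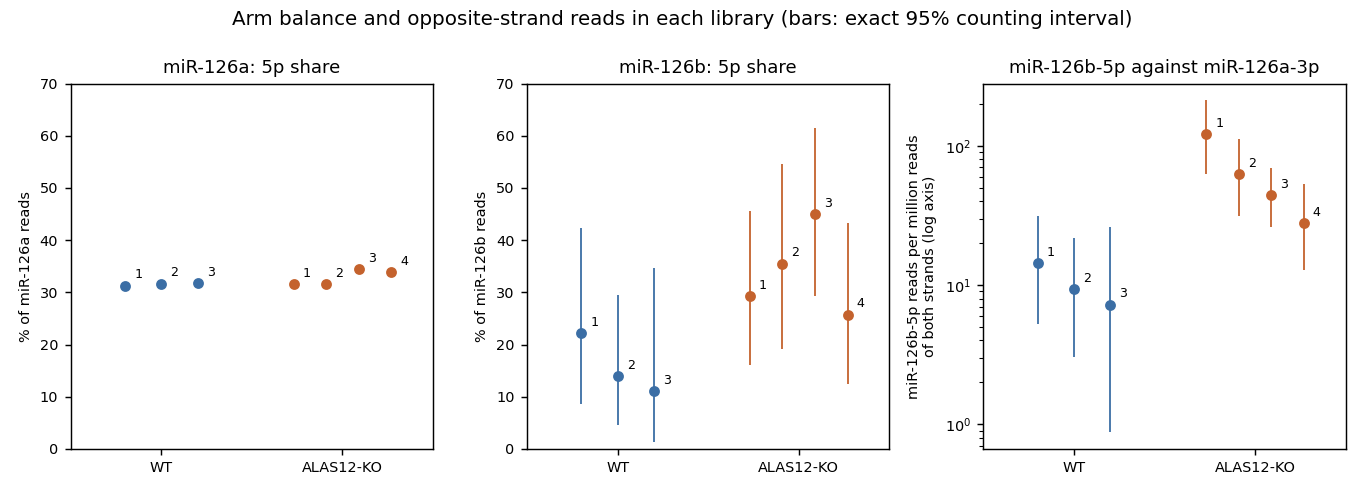
Arm balance in each library, as the 5p share of miR-126a reads and of miR-126b reads (percent) and as miR-126b-5p reads per 1000000 reads of miR-126b-5p and miR-126a-3p together. Points are libraries with their replicate number and bars are exact 95% binomial intervals, and the miR-126a share stays between 31.3% and 34.5% while the miR-126b share runs from 11.1% to 45.0%.

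Reads of the minus strand were next set against those of the plus strand at the same site. miR-126b-5p made up 14.4, 9.37 and 7.24 reads per 1000000 of itself and the facing miR-126a-3p in WT, against 121.5, 62.5, 44.1 and 28.0 in ALAS12-KO. The groups did not overlap, and the highest value belonged to ALAS12-KO replicate 1, the library lowest in miR-126a-3p. On the log2 scale the ratio averaged −16.43 (SD 0.41, n = 3) for WT and −14.08 (SD 0.89, n = 4) for ALAS12-KO, a difference of 2.35 with a two-sided exact permutation p of 0.0286 (0.114 adjusted). That difference was 1.97 without ALAS12-KO replicate 1, and 1.76 with 5 added to each count, where the exact permutation p was 0.0571. The ratio is built from the counts already described for its 2 arms and is not separate evidence. Both arms were already apart on CPM, in opposite directions, so the separation of their ratio followed from them. miR-126b-3p made up 110, 125 and 124 reads per 1000000 of itself and miR-126a-5p in WT, against 635, 246, 102 and 158 in ALAS12-KO. Here the groups overlapped, and the difference of 0.90 on the log2 scale had a two-sided exact permutation p of 0.257 (0.343 adjusted). Without ALAS12-KO replicate 1 that difference was 0.40.

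How the counting treated strand is not stated. The summary entry for ambiguous reads held 156 to 318 reads per library, against 144363 to 781023 reads of the miR-126a arms. Across the genome, 25 pairs of miRNA hairpins overlapped on opposite strands and had both names in the files, and 8 of them had an arm at a mean of 100 CPM or more. Mir126b stood at 69.0 reads per 1000000 of both strands over all libraries, above Mir30f opposite Mir30e (8.91) and Mir142b opposite Mir142 (20.6) and below the other 5. Mir126a was the most abundant of these 8 loci, with 3304511 reads against 228 for Mir126b. The pairs of Mir24-1 with Mir3074-1 and Mir24-2 with Mir3074-2, which share miR-24-3p, had 141 and 119 reads per 1000000. By group, Mir126b stood at 45.2 in WT and 97.3 in ALAS12-KO. Mir3074-1 stood at 101 and 181, and Mir3074-2 at 73.5 and 163. Mir30f and Mir142b were also higher in ALAS12-KO, while the rarer strands opposite Mir203, Mir497 and Mir338 were lower. These group values were not tested.

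**Figure D3:**
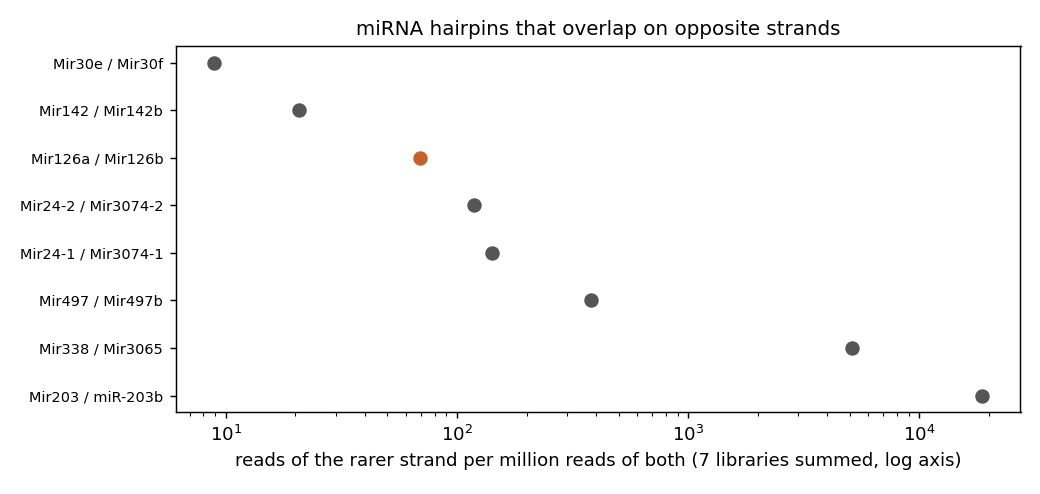
Rarer strand in reads per 1000000 of both strands (log scale), summed over 7 libraries, for the 8 pairs of overlapping opposite-strand hairpins with an arm at 100 CPM or more. Mir126a with Mir126b stands at 69.0 reads per 1000000, between Mir142 with Mir142b (20.6) and Mir24-2 with Mir3074-2 (119).

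As a gauge of endothelial carry-over, the 2 miR-126a arms together took 3.79%, 3.56% and 5.25% of miRNA reads in WT. In ALAS12-KO they took 1.10%, 2.55%, 3.65% and 2.96%. ALAS12-KO replicate 3 lay above WT replicate 2, and the remaining ALAS12-KO libraries lay below all WT libraries. The difference of the means was −1.63 percentage points, with a two-sided exact permutation p of 0.0857 (0.171 adjusted), and −1.14 without ALAS12-KO replicate 1. Against the hepatocyte miR-122-5p, 1 read of miR-126a-3p was counted per 15.9 to 24.4 reads in WT and per 22.4 to 82.0 reads in ALAS12-KO. That log2 ratio differed by −0.84 (two-sided exact permutation p = 0.114, 0.183 adjusted), and by −0.45 without ALAS12-KO replicate 1.

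Markers of the other cells that a liver preparation can hold were also lowest in ALAS12-KO replicate 1, to different degrees. In ALAS12-KO replicate 1 the miR-126a arms stood at 35.9% of their mean in the other 3 ALAS12-KO libraries. The 8 leukocyte markers together stood at 36.0% and the 8 mesenchymal markers at 35.1%, so both lists were as low there as miR-126a. The cholangiocyte markers stood at 60.8% and the red cell markers at 55.3%, less of a drop, while hepatocyte markers stood at 109%. The summed leukocyte share ran from 0.818% to 1.10% of miRNA reads in WT and from 0.300% to 0.998% in ALAS12-KO. The mesenchymal share ran from 0.421% to 0.703% and from 0.158% to 0.578%, so the groups overlapped for both lists. Cholangiocyte markers took 0.0139% to 0.0243% in WT and 0.00544% to 0.0105% in ALAS12-KO, with no overlap. Red cell markers took 0.00205% to 0.00272% in WT and 0.000911% to 0.00203% in ALAS12-KO, also with no overlap, though the nearest values almost met. Such a separation on CPM held for 15.3% of all 450 miRNAs taken singly. The cholangiocyte and red cell lists were rare in every library, and no listed marker in the files was at 0 in any library. The part of these cells in the miR-126a result was not tested.

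Set against the leukocyte and mesenchymal markers within each library, miR-126a-3p varied far less over all 7 libraries than its own level did. That contrast rested largely on ALAS12-KO replicate 1. Within WT alone, log2 TMM CPM of miR-126a-3p, less its mean over all libraries, ran from 0.24 to 0.65. The WT log2 ratio to mesenchymal markers ran from 2.09 to 2.53, about as wide. The log2 ratio of miR-126a-3p to the summed leukocyte markers was 1.67, 1.41 and 1.70 in WT and 1.32, 1.41, 1.26 and 1.21 in ALAS12-KO. WT replicate 2 met ALAS12-KO replicate 2, so the groups overlapped, and the difference of −0.30 had a two-sided exact permutation p of 0.0571 (0.152 adjusted). The log2 ratio to the summed mesenchymal markers was 2.09, 2.53 and 2.35 in WT and 2.25, 2.30, 2.05 and 2.24 in ALAS12-KO. The groups overlapped, with a difference of −0.12 and a two-sided exact permutation p of 0.343 (0.343 adjusted). ALAS12-KO replicate 1 was neither the highest nor the lowest ALAS12-KO library in either ratio, and without it the differences were −0.30 and −0.13. Of the 8 single values compared, 0 passed the adjusted threshold and 2 had an unadjusted p under 0.05, both of them ratios of miR-126b-5p. For the reasons given with these ratios, neither is read as support for a difference.

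**Figure D4:**
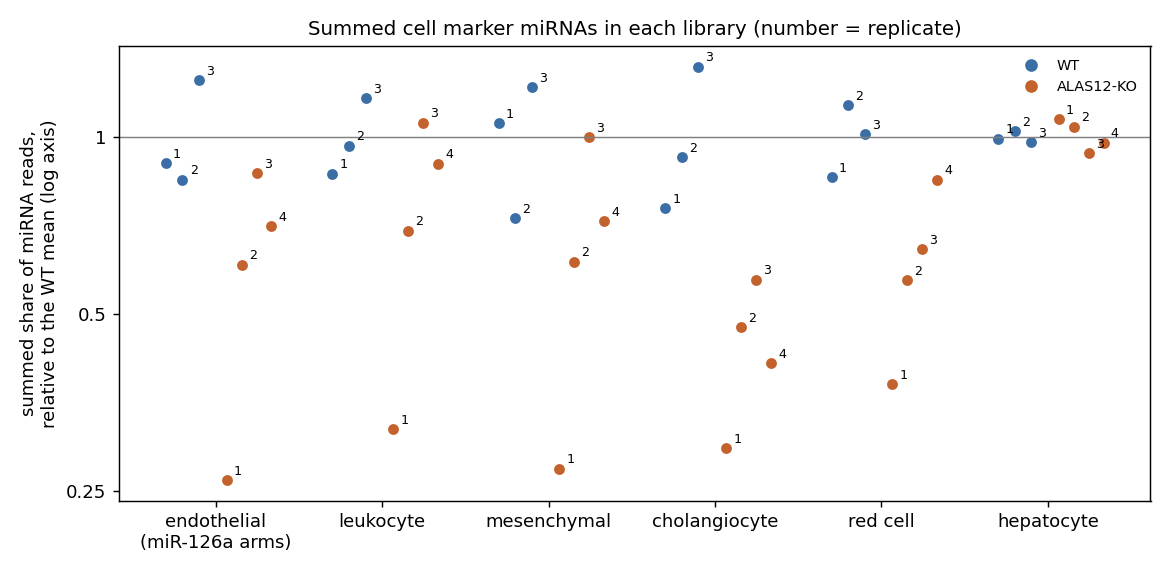
Summed share of miRNA reads of each cell marker list in each library, relative to the WT mean of that list (log scale), for WT (n = 3) and ALAS12-KO (n = 4) with replicate numbers. ALAS12-KO replicate 1 is the lowest library for the miR-126a arms (1.10% of reads), the leukocyte markers (0.300%) and the mesenchymal markers (0.158%), and the highest for the hepatocyte markers (69.3%).

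Fold changes of single markers lay on both sides of that of miR-126a-3p. Counts of markers at an unadjusted p under 0.05 stand beside 8.44% lower and 10.2% higher over all 450 miRNAs tested. All 8 leukocyte markers had negative log2 fold changes, with a median of −0.31 against 0.06 over all 450 miRNAs, and edgeR called 0, with 1 lower at an unadjusted p under 0.05. Among them mmu-miR-142a-3p, made in blood cells, had −0.17 ± 0.27 (SE), and mmu-miR-223-3p, of myeloid cells, −0.41 ± 0.25 (SE). Of the 8 mesenchymal markers 7 had negative values, with a median of −0.52, 0 called and 1 lower at an unadjusted p under 0.05. There mmu-miR-143-3p, of smooth muscle, had −0.46 ± 0.30 (SE), and mmu-miR-199a-3p, of stellate cells and fibroblasts, −0.48 ± 0.30 (SE). The 5 cholangiocyte markers were all negative, with a median of −1.27, 0 called and 3 lower at an unadjusted p under 0.05, but the list was split. mmu-miR-200a-3p, of biliary epithelium, had −1.31 ± 0.27 (SE), mmu-miR-200b-3p −1.30 ± 0.29 (SE) and mmu-miR-429-3p −1.27 ± 0.27 (SE). Near 0 were mmu-miR-141-3p at −0.10 ± 0.18 (SE) and mmu-miR-200c-3p at −0.07 ± 0.28 (SE). The 4 red cell markers were all negative, with a median of −0.51, 0 called and 2 lower at an unadjusted p under 0.05. The 7 hepatocyte markers tested had positive values with a median of 0.34, 0 called and 1 higher at an unadjusted p under 0.05, and with library totals alone 6 were positive and 1 negative. Library totals moved the median over all miRNAs from 0.06 to −0.12.

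miRNAs of other loci that are reported in endothelial cells, but also in other cells, were less uniform. Of the 20 on the list 12 had negative and 8 positive log2 fold changes (14 and 6 with library totals alone), with a median of −0.30, and edgeR called 0. At an unadjusted p under 0.05, 0 were lower and 1 was higher, mmu-miR-23b-3p at 0.36 ± 0.11 (SE). The most abundant were mmu-miR-27b-3p at 0.09 ± 0.14 (SE), mmu-miR-146a-5p, also on the leukocyte list, at −0.52 ± 0.29 (SE) and mmu-miR-24-3p at −0.18 ± 0.12 (SE). In ALAS12-KO replicate 1 the sum of the 20 stood at 67.7% of its mean in the other ALAS12-KO libraries, but the sum rests on a few abundant members. Taken singly, 12 of the 20 stood at or below 50% and the median was 41.9%, near the 35.9% of the miR-126a arms. mmu-miR-10a-5p (28.7%), mmu-miR-322-5p (33.6%) and mmu-miR-23a-3p (34.0%) were as low as miR-126a, while mmu-miR-27b-3p (94.9%) and mmu-miR-130a-3p (106%) were near their level in the other libraries. The limit of 50% and these examples were chosen after the values were seen. The same share over all tested miRNAs was not computed, so these counts are not read as a result about endothelial miRNAs.

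The miRNAs whose pattern was most like that of miR-126a-3p were sought among the 104 others with a mean of 100 CPM or more. Likeness was the root-mean-square difference of log2 TMM CPM over the 7 libraries, each miRNA centred on its own mean. miR-126a-3p itself varied by 0.51 about its mean, and miR-126a-5p differed from it by 0.08. The 5 closest were miR-27a-3p (0.08), miR-322-5p (0.09), miR-145a-5p (0.10), miR-338-3p (0.11) and miR-497a-5p (0.11), against a median of 0.64 over the 104 and 0.70 for miR-122-5p. The closest, miR-27a-3p, was counted at 649, 629 and 914 CPM in WT and at 218, 481, 601 and 506 CPM in ALAS12-KO. It had the order of the 7 libraries of miR-126a-3p, with WT replicate 3 the highest and ALAS12-KO replicate 1 the lowest. Without ALAS12-KO replicate 1, a choice made after its values were seen, the same 5 miRNAs were the closest, while miR-126a-3p varied by 0.24 and the median difference was 0.34.

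**Figure D5:**
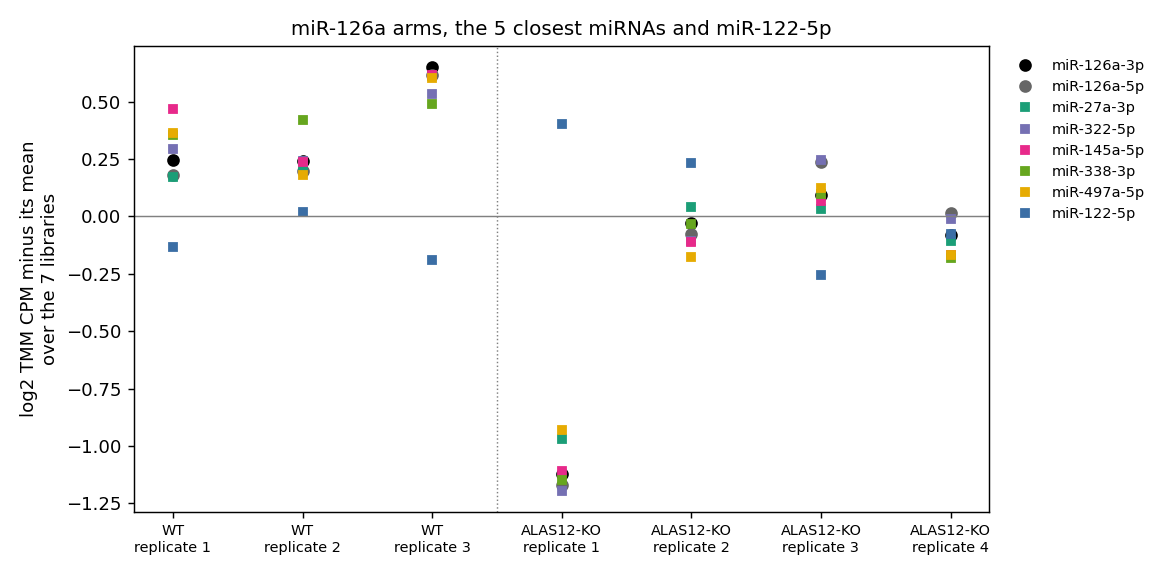
log2 TMM CPM minus its mean over the 7 libraries (y axis) for miR-126a-3p, miR-126a-5p, the 5 miRNAs closest to miR-126a-3p and miR-122-5p, in each library (x axis). All but miR-122-5p lie together and are lowest in ALAS12-KO replicate 1, while miR-122-5p, which differs from miR-126a-3p by 0.70, is highest there.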

How the data were processed

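Each library has 1 deposited table of raw read counts per mature miRNA name, whole numbers that carry no normalisation. Per the submitters' processing notes, cutadapt and limma were used and mm10 and hg38 are named, with no role given. Information on the aligner, counter, strand setting and miRNA annotation was not given in the sources used here. Summary entries were kept out of all totals and tests, and reads outside any miRNA were 50.9% to 73.7% of each library. CPM are on summed miRNA counts. edgeR 4.0.16 in R 4.3.3 (robust quasi-likelihood fit, TMM, filterByExpr with a minimum count of 10, Benjamini-Hochberg, threshold 0.05) gave fold changes as ALAS12-KO against WT, with all 4 members among the 450 miRNAs kept. limma 3.58.1 tested arm ratios with 0.5 added to each count. Single values were tested by exact permutation of the group labels, two-sided. Alternatives were DESeq2 1.42.0, limma-voom, other scalings and filters, a block on the replicate number, and each library left out in turn. The edgeR and limma steps were tested on simulated data. Positions came from GENCODE M21 and sequences from RefSeq (GRCm38.p6). The rule for named miRNAs took the members, the most abundant markers of each list, the 5 closest patterns and the opposite-strand pairs with an arm at 100 CPM. The members and lists were chosen with earlier results of these data known. Spike-in RNAs are not analysed here, so levels are relative to total miRNA.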

Additional observations from a re-analysis of the deposited data

Results flagged for a closer look

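In ALAS12-KO (n = 4), 22 measures of the members and marker lists were checked for a library far from its group, and 1 had such a library. Chance alone gives about 1 such group in 20. miR-126a-3p in ALAS12-KO replicate 1 stood at 13.18 on the log2 TMM CPM scale. The distance to the next library made up 0.855 of the range in that group, past Dixon's critical ratio for 4 libraries. On linear CPM it made up 0.606 of the range, and for miR-126a-5p it made up 0.779 on the log2 scale, neither of them past that ratio.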

How the results depend on the processing

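The count of miRNAs called by abundance was 0 and became 2 with library totals, 13 with no filter beyond 1 read in any library and 21 with DESeq2. Leaving out each library gave 0 to 1, with the 1 found without ALAS12-KO replicate 2. The cause of these moves was not tested. For the 4 members, all fitted log2 fold changes kept their direction and none passed the adjusted threshold in the alternatives run: miR-126a-3p ran from −0.80 to −0.42, miR-126a-5p from −0.74 to −0.31, miR-126b-3p from 0.13 to 0.50 and miR-126b-5p from 1.61 to 2.04. miR-126b-5p could not be fitted without ALAS12-KO replicate 1, 2 or 3, since the filter then dropped it, and neither miR-126b arm passed the filter of 10 CPM in 3 libraries. All 8 single values kept their direction in the alternatives run, and with 5 added to each count both ratios of miR-126b-5p lost their unadjusted p under 0.05 (0.0571 each). The ratio of miR-126a-3p to mesenchymal markers came closest to 0, at −0.01, without WT replicate 2. With 6 libraries the smallest p is 0.0667 or 0.1, so leaving out a library speaks to direction only. Same-numbered libraries of the groups did not deviate together (correlations over miRNAs of −0.03, −0.47 and 0.01), so the numbers were not taken to pair them. Between differently numbered libraries the correlations ran from −0.355 to 0.531, the highest for WT replicate 3 with ALAS12-KO replicate 2. Those libraries had the most reads outside any miRNA (73.7% and 72.2%), and what they share was not tested. With a replicate block edgeR called 0 miRNAs and limma 0 hairpins, and miR-126a-3p had −0.73. Depth limits the miR-126b arms, at 2 to 31 reads per library.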
